A study of Homo sapiens with 7 samples.

Results

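The 10 keratin genes of basal and simple epithelia (KRT5, KRT14, KRT15, KRT6A, KRT6B, KRT16, KRT17, KRT8, KRT18 and KRT19) were examined in NCI-H520, an established human cell line of squamous lung carcinoma origin. They were chosen by name, and a probe belonged to a gene when its RefSeq accession carried that gene's symbol. All 10 were found among the 19062 named genes on the array, on 12 probes, since KRT8 and KRT18 had 2 probes each. RNA came from cells transfected with 6 µg of pLKO.1 plasmid, selected with puromycin at 6 µg/mL from 12 h and harvested at 72 h. The 5 silenced cultures received an shRNA against PARN, CNOT6, CNOT6L, CNOT7 or NOC (nocturnin, gene symbol NOCT), which are deadenylases, enzymes that shorten the poly(A) tail of mRNAs. The 2 control cultures received the empty vector or a non-target shRNA. Each of the 7 groups had 1 array, so no difference between groups has a replicate check, and the labels do not say that a group was more than 1 culture.

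Keratins are the intermediate filament proteins of epithelial cells. A filament needs a type II keratin (here KRT5, KRT6A, KRT6B and KRT8) and a type I keratin (KRT14, KRT15, KRT16, KRT17, KRT18 and KRT19). Basal cells of stratified epithelia carry KRT5 with KRT14 and KRT15, wounded and hyperproliferative epithelia switch on KRT6A, KRT6B, KRT16 and KRT17, and single-layered epithelia carry KRT8 with KRT18 and KRT19. Pathologists use KRT5 and its KRT6 relatives to recognise squamous carcinoma of the lung, and KRT8, KRT18 and KRT19 to recognise carcinoma in general. KRT6A, KRT6B and KRT6C are near-identical copies, and KRT14, KRT16 and KRT17 also resemble each other closely. Probe sequences were not used here, so how far a probe also reads a relative of its gene was not tested.

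A level is the log2 processed signal of a probe relative to its array's 75th percentile, and levels are compared between arrays for the same probe, not between probes. The 75th percentile ranged from 1366 to 3986, and 82.0% to 91.4% of probes were well above background on an array. The targeted mRNA changed by -1.22 and -1.03 against the empty vector and the non-target control with PARN shRNA, but by only -0.21 and -0.11 with CNOT6 shRNA. The changes were -0.70 and -0.63 with CNOT6L, -0.84 and -0.93 with CNOT7, and -0.64 and -0.22 with NOC shRNA. Here silencing names the shRNA that a culture received, not how far its target fell. The labels name a single accession as the target of the CNOT6L shRNA and of the NOC shRNA, so which mRNA the CNOT6L plasmid was designed against is uncertain. The arrays lay in 2 rows of 1 slide. Both controls, PARN and CNOT6 were in row 1, and CNOT6L, CNOT7 and NOC were in row 2, so a row and these 3 shRNAs cannot be told apart in a comparison with the controls. Markers of squamous carcinoma were present only in part. SOX2, the transcription factor amplified in many squamous carcinomas, was well above background on all 7 arrays (4.58 to 5.45), and so were PERP, S100A2, SERPINB5 and TRIM29. DSG3, a desmosomal cadherin, stayed below that mark on all 7 arrays, and TP63, the master regulator of basal cells, passed it on 2. Of the 10 squamous markers, 7 to 9 were above background on an array, and the log2 of their summed level was 5.35 to 6.17. Such sums are given only for their spread over the arrays, since 1 or 2 bright probes carry them. Markers of lung adenocarcinoma (5 to 7 of 7, summed level -0.42 to -0.05), neuroendocrine cells (7 to 8 of 8, 2.13 to 3.20), mesenchyme (6 to 7 of 9, 4.12 to 4.87, with VIM at 4.07 to 4.84 and COL3A1 and LUM on no array) and white blood cells (5 of 5, 2.95 to 3.90, with CD14 at 2.91 to 3.85) were also detected, and their part in the keratin values was not tested.

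The basal pair was close to background in these cells. KRT5, the type II keratin that defines basal keratinocytes (probe A_23_P218047, NM_000424), read -7.56 in the empty vector, -9.48 in the non-target control, -9.29 with PARN, -7.77 with CNOT6, -7.18 with CNOT6L, -7.28 with CNOT7 and -7.79 with NOC shRNA. It was well above background on 4 of the 7 arrays, and by both of its 2 spots on the CNOT7 array only. The SD between its spots reached 0.85, and the arrays where it was detected lay within that of each other. KRT14, its type I partner (A_33_P3345534), read -7.12 in the empty vector, -9.61 in the non-target control, -9.46 with PARN, -9.33 with CNOT6, -9.28 with CNOT6L, -9.95 with CNOT7 and -9.76 with NOC shRNA. It was well above background in the empty vector only, where it was at least 2.56-fold over the non-target control. In bulk RNA, fewer cells that express a keratin and less of its mRNA per cell cannot be told apart. The KRT5 promoter is printed because KRT5 is a diagnostic keratin of squamous carcinoma and lay near background here.

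The window surrounds the annotated start in RefSeq, ending 50 bases after it, GRCh38.p14, chr12:52520345-52520644, minus strand, read 5′ to 3′, with motif matches in capitals. Of the other members only KRT8 had an entry in this table. The KRT5 window holds a TATA-like ATAAAA 29 bases before the start and an E box (CANNTG) at 130 and at 109 bases before it, while TATAAA, the AP-1 letters TGANTCA, the GC box GGGCGG and the AP-2 letters GCCNNNGGC were not in it on either strand. Among 35116 promoters of the same length, 16.0% held ATAAAA, 68.7% an E box, 11.5% TATAAA, 7.71% TGANTCA, 45.0% GGGCGG and 23.2% GCCNNNGGC.
KRT5 promoter: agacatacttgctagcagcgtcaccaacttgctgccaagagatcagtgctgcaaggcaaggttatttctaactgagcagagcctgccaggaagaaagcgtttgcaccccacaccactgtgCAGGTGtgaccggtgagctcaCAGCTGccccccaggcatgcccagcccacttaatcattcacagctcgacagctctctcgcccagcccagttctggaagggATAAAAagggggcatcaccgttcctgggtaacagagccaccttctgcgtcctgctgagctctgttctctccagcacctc

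Among the basal keratins KRT5, KRT14 and KRT15, only KRT15 was well above background on all 7 arrays. KRT15, a type I keratin of basal and bulge stem cells (A_23_P27133), read 1.60 in the empty vector, 0.92 in the non-target control, 1.59 with PARN, 1.76 with CNOT6, 1.70 with CNOT6L, 1.63 with CNOT7 and 1.67 with NOC shRNA. The non-target array was the only low one. The 5 shRNAs were 0.67 to 0.84 above the non-target control, and -0.01 to 0.16 from the empty vector. The controls themselves differed by 0.68, while spots differed by an SD of 0.037 at most. KRT15 had the lowest p of the keratins tested by limma for all shRNAs against both controls (log2 difference 0.41, SE 0.17, adjusted p = 0.99997).

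**Figure D1:**
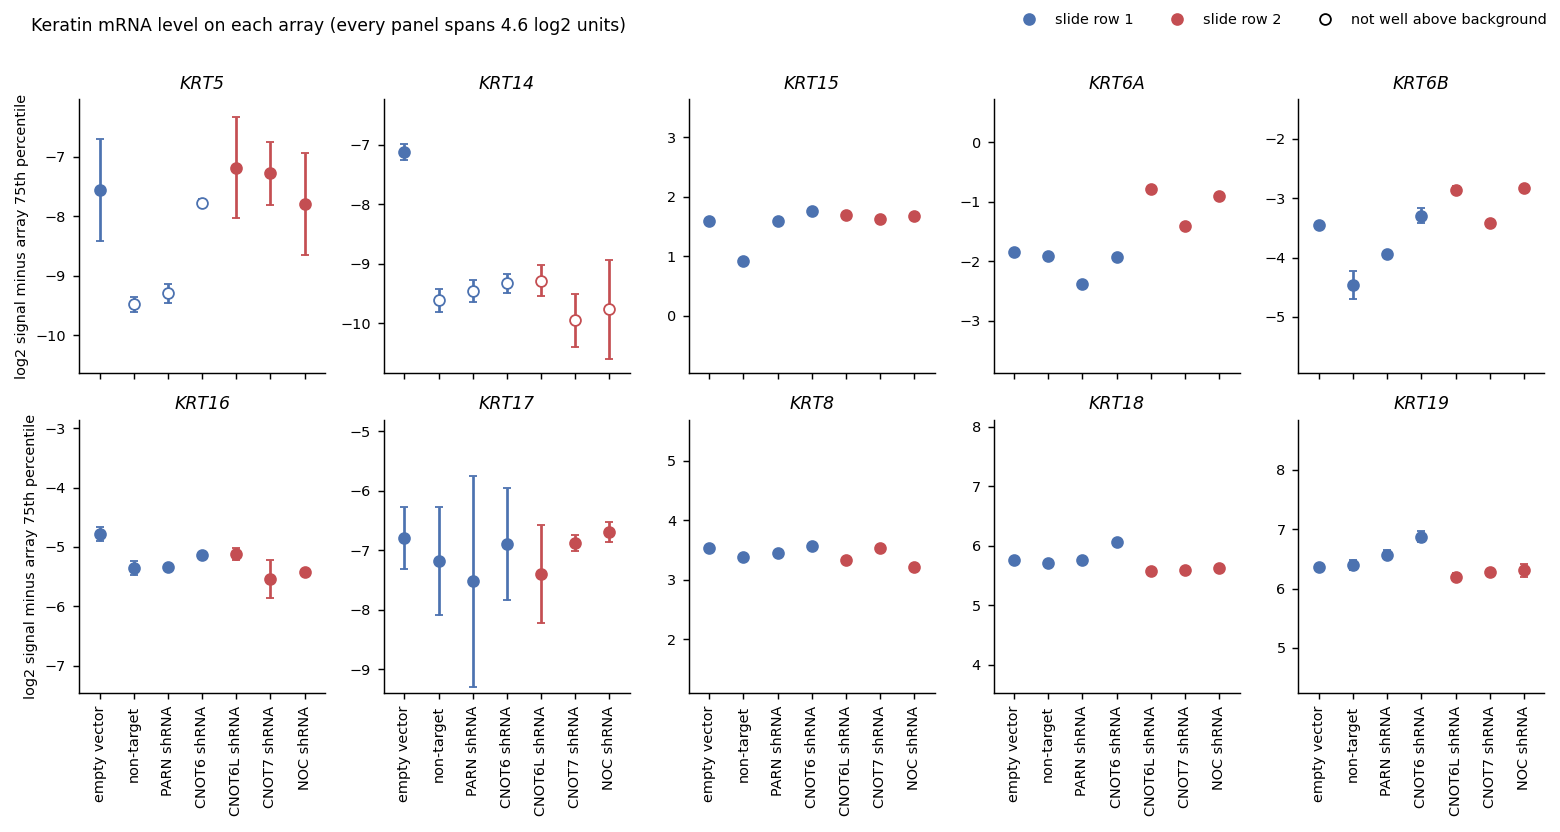
Log2 level of the lead probe of each keratin on the 7 arrays, minus the 75th percentile of the array, with bars for the SD between its 2 spots (KRT18 has 1 spot). Open circles are arrays where the probe was not well above background. KRT5 and KRT14 lie near background, KRT15 is low on the non-target array alone, and KRT6A is higher on the 3 arrays of slide row 2 than on the 4 of row 1.

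Of the 10 keratins, KRT6A and KRT6B had the widest spread among those above background on all arrays. KRT6A, the type II keratin induced by wounding (A_33_P3292886), read -1.84 in the empty vector, -1.92 in the non-target control, -2.38 with PARN, -1.93 with CNOT6, -0.78 with CNOT6L, -1.40 with CNOT7 and -0.90 with NOC shRNA. The controls differed by only 0.07, and the SD between spots was 0.0092 to 0.052 over the arrays. Upon CNOT6L silencing KRT6A was 1.07 above the empty vector and 1.14 above the non-target control, a mean of 2.15-fold. It passed the rule of this comparison, which asks for at least a 2-fold difference in the same direction from both controls, and it was the only one of the 10 keratins to pass with any shRNA. Upon NOC silencing it was 0.94 and 1.01 above the controls, just short of the rule. Upon CNOT7 silencing the differences were 0.44 and 0.51, upon CNOT6 silencing -0.09 and -0.01, and upon PARN silencing -0.53 and -0.46, which made the PARN array the lowest of all.

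The CNOT6L call stood close to its threshold. Over the scalings and background corrections tried, the mean difference of KRT6A was 0.996 to 1.501, and the lowest value, after normexp background correction, ended the call. Within slide row 2, KRT6A on the CNOT6L array was 0.63 above CNOT7 and 0.13 above NOC, and the CNOT7 array differed by -0.56 from the mean of the other two. No keratin was 2-fold away from both other arrays of the row, as were 0.64% of all genes for CNOT6L, 0.262% for CNOT7 and 0.346% for NOC. The 3 arrays of row 2 read -1.40 to -0.78 and the 4 of row 1 read -2.38 to -1.84, without overlap.

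KRT6B, its close copy (A_23_P76249), read -3.46 in the empty vector, -4.46 in the non-target control, -3.94 with PARN, -3.30 with CNOT6, -2.86 with CNOT6L, -3.42 with CNOT7 and -2.82 with NOC shRNA. CNOT6L and NOC were again the highest arrays, at 0.60 and 0.63 above the empty vector and 1.60 and 1.64 above the non-target control. No shRNA array was 2-fold above the empty vector, so none passed, and the controls themselves differed by 1.003, which is 2.004-fold. CNOT7 lay 0.03 and CNOT6 0.16 above the empty vector. KRT6C, the remaining copy (A_23_P366936, 1 spot), was not among the 10 genes and came from the list of other epithelial keratins. It read -4.31 in the empty vector, -4.42 in the non-target control, -4.69 with PARN, -4.15 with CNOT6, -3.26 with CNOT6L, -3.99 with CNOT7 and -3.03 with NOC shRNA. KRT6C passed the 2-fold rule with CNOT6L (1.05 and 1.15) and with NOC (1.29 and 1.39). After normexp correction its CNOT6L differences were 0.81 and 0.76, which no longer passed.

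**Figure D2:**
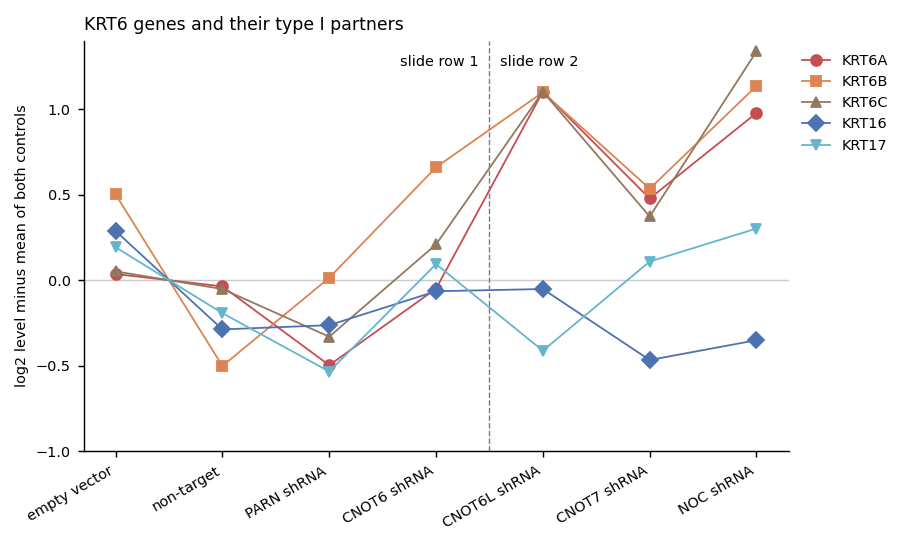
Log2 level minus the mean of both controls for KRT6A, KRT6B, KRT6C and the type I keratins KRT16 and KRT17 on the 7 arrays, 1 point per array; the dashed line separates slide row 1 from row 2. The 3 KRT6 genes share peaks on the CNOT6L and NOC arrays, at 1.10 for each of the 3 with CNOT6L, and KRT16 and KRT17 do not follow them. How far the KRT6 probes read each other's mRNA was not tested.

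Over the 7 arrays the level of KRT6A correlated with that of KRT6C at r = 0.96 and with that of KRT6B at r = 0.77, and KRT6B with KRT6C at r = 0.84. These are descriptions over 7 arrays that share their slide, and the comparison with KRT6C was chosen after its values were seen. Genes other than keratins reached a higher r with KRT6A, such as RCBTB2 at 0.994. How far the KRT6 probes read each other's mRNA was not tested. KRT6B, KRT6C, KRT6A and KRT5 are neighbours in this order in the RefSeq annotation, and KRT5 near background could not be followed with them. The type I partners had narrower ranges. KRT16 (A_23_P38537) read -4.78 in the empty vector, -5.36 in the non-target control, -5.34 with PARN, -5.14 with CNOT6, -5.12 with CNOT6L, -5.54 with CNOT7 and -5.42 with NOC shRNA. The empty vector was the highest array, and the 5 shRNAs differed from the non-target control by -0.18 to 0.24. KRT17 (A_23_P96158), a keratin of stressed epithelium and of basal-like tumours, read -6.80 in the empty vector, -7.18 in the non-target control, -7.52 with PARN, -6.90 with CNOT6, -7.40 with CNOT6L, -6.88 with CNOT7 and -6.69 with NOC shRNA. Its spots were both well above background on 3 arrays only, and their SD reached 1.78, so none of these differences stood clear of the error within an array. KRT16 correlated with KRT6A at r = -0.14 and KRT17 at r = 0.26.

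The simple epithelial keratins were well above background on every array, and none passed the 2-fold rule with any shRNA. KRT8, the type II keratin of single-layered epithelia (A_23_P14072), read 3.53 in the empty vector, 3.38 in the non-target control, 3.45 with PARN, 3.56 with CNOT6, 3.34 with CNOT6L, 3.54 with CNOT7 and 3.21 with NOC shRNA. Its range of 0.35 was the narrowest of the 8 keratins that were above background on all arrays, and 14.1% of the 16456 genes so detected had a range that narrow. The second KRT8 probe (A_24_P67395, 1 spot) read -2.47 in the empty vector, -2.35 in the non-target control, -2.70 with PARN, -2.62 with CNOT6, -2.72 with CNOT6L, -2.55 with CNOT7 and -2.69 with NOC shRNA, so that all 5 shRNAs lay below both controls, at -0.31 to -0.14 from the control mean. On the lead probe the same differences ran from -0.24 to 0.11, and the probes disagreed in sign for CNOT6 and CNOT7.

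KRT18, the type I partner of KRT8 (A_32_P151544, 1 spot), read 5.76 in the empty vector, 5.71 in the non-target control, 5.77 with PARN, 6.06 with CNOT6, 5.58 with CNOT6L, 5.59 with CNOT7 and 5.63 with NOC shRNA. CNOT6 was its highest array, at 0.30 and 0.34 above the controls, and its second probe (A_24_P42136) put CNOT6 0.17 above the control mean. Its lead and second probes disagreed in sign for PARN (0.03 and -0.07), CNOT6L (-0.15 and 0.02) and CNOT7 (-0.14 and 0.03). KRT19, the smallest keratin, which lacks the usual tail (A_23_P66798), read 6.37 in the empty vector, 6.39 in the non-target control, 6.57 with PARN, 6.88 with CNOT6, 6.20 with CNOT6L, 6.27 with CNOT7 and 6.30 with NOC shRNA. Upon CNOT6 silencing it was 0.50 and 0.48 above the controls, which themselves differed by 0.02. The mean difference with CNOT6 turned for both genes after quantile normalization, to -0.04 for KRT18 and -0.03 for KRT19. It stayed positive with the 75th percentile of probes above background on all arrays (0.33 and 0.50). It was also positive after normexp correction (0.29 and 0.46) and in the log2 values deposited by the authors (0.30 and 0.47). Without scaling it was -0.68 and -0.51, but the median of all genes was then lower, at -0.97. The CNOT6 array was the dimmest of the 7. The lead probes of KRT18 and KRT19 followed each other at r = 0.97 over the 7 arrays, and both were lower on the arrays of row 2 (5.58 to 5.63 and 6.20 to 6.30) than on those of row 1 (5.71 to 6.06 and 6.37 to 6.88). The second KRT18 probe overlapped between the rows, at 3.98 to 4.07 in row 2 and 3.98 to 4.22 in row 1. In limma over all shRNAs against both controls, the log2 difference of KRT19 was 0.06 (SE 0.18, adjusted p = 0.99997). With slide row as a further term in limma it was 0.34 (SE 0.12, adjusted p = 0.925).

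**Figure D3:**
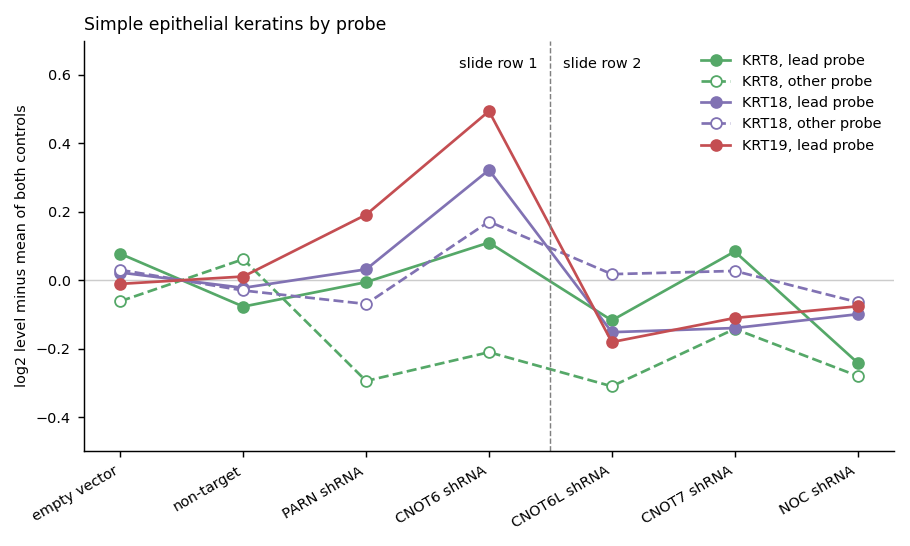
Log2 level minus the mean of both controls for each probe of KRT8, KRT18 and KRT19 on the 7 arrays, 1 point per array; filled circles are lead probes and open circles the second probes. At this scaling KRT18 and KRT19 peak on the CNOT6 array at 0.32 and 0.49 (-0.04 and -0.03 after quantile normalization), while the second KRT8 probe lies below 0 on all 5 shRNA arrays.

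How many keratins passed with each shRNA was read against all named genes under the same rule. With PARN, CNOT6, CNOT7 and NOC silencing 0 of the 10 keratins passed, where 0.483%, 0.477%, 0.971% and 1.32% of all genes passed in either direction. With CNOT6L silencing 1 of 10 passed, KRT6A, which was higher, where 0.205% of all genes passed as higher and 0.86% in either direction. Over the 8 keratins above background on every array, the median difference from the control mean was 0.00 with PARN, 0.22 with CNOT6, -0.08 with CNOT6L, 0.10 with CNOT7 and 0.11 with NOC shRNA, against -0.03 to 0.03 for all genes so detected. The difference was under 0.5 in size for 33 of the 40 pairs of keratin and shRNA (82.5%, against 86.0% over all genes). The 5 comparisons share their control arrays. Called in the same way, the empty vector was higher than the non-target control for 2 keratins, KRT6B and KRT14, where 11.0% of all genes were higher and 11.6% differed. Quantile normalization left neither of these calls. The empty vector array had the highest share of probes well above background (91.4%) and the non-target array the lowest (82.0%), and the part of this in the differences between the controls was not tested.

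**Figure D4:**
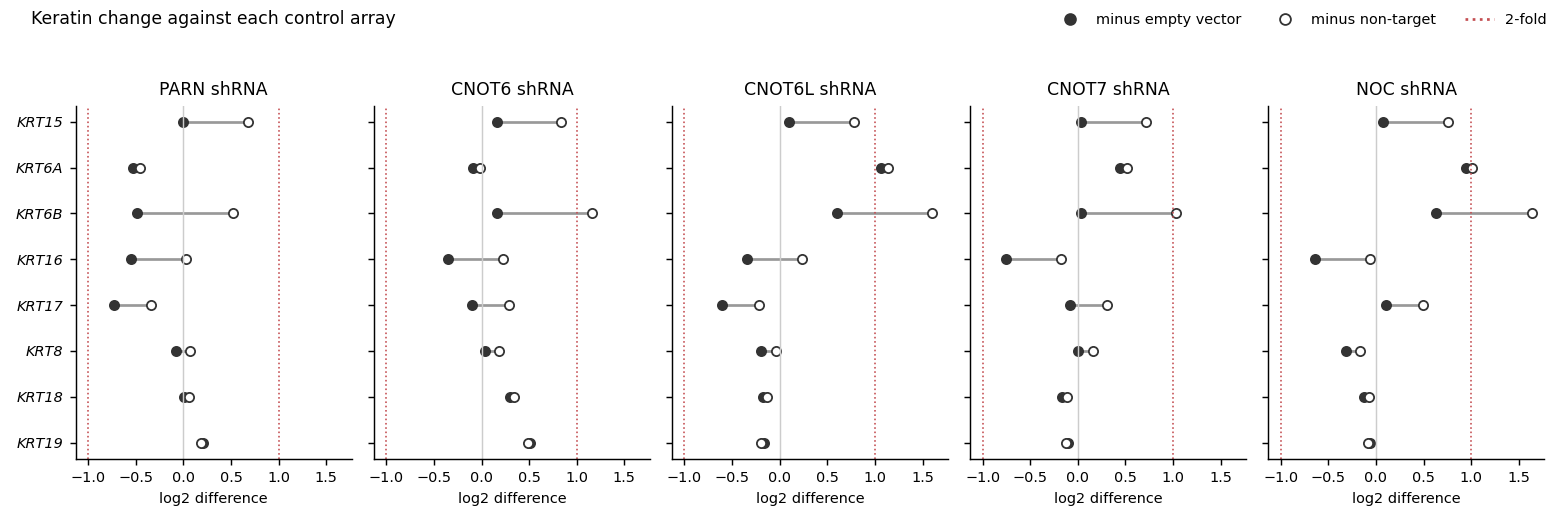
Log2 difference of each shRNA array from the empty vector (filled) and from the non-target control (open) for the 8 keratins above background on all arrays; dotted lines mark 2-fold. KRT6A with CNOT6L is the only pair with both points past a line, and the gap between points for KRT15 and KRT6B is the difference between the controls.

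Taking the 5 shRNAs as a group did not separate them from the controls. In limma across 38004 probes, 0 of the 9 keratins tested passed an adjusted p of 0.05, as did 0.0% of all probes (lowest adjusted p = 0.473), and KRT14 was not tested because it was above background on 1 array. At an unadjusted p under 0.05 there was 1 keratin, KRT15, where 3.74% of probes passed. None of the 10 keratins had, by lead probe, all 5 shRNA arrays above or all below both controls, which 6.68% of genes did. The second KRT8 probe had all 5 shRNA arrays below both controls. By lead probe the slide rows separated 3 keratins, KRT6A (row 2 higher), KRT18 (row 2 lower, but not by its second probe) and KRT19 (row 2 lower), where 25.5% of all genes had rows without overlap. This comparison was made after the values were seen.

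KRT6A and KRT6B varied more over the arrays than most genes. Their range over the 7 arrays was 1.60 and 1.64, and 94.9% and 95.3% of genes above background on all arrays had a range no wider. The range was 0.84 for KRT15 and KRT17 (70.6% for each), 0.75 for KRT16 (63.7%), 0.68 for KRT19 (56.1%) and 0.47 for KRT18 (30.9%), and the median gene had 0.62. The genes with the pattern most like KRT6A over the 7 arrays were RCBTB2 (r = 0.994), FBXW11 (r = 0.989) and OSTC (r = 0.988). For KRT6B they were JMY (r = 0.986), C11orf87 (r = 0.986) and DPYD (r = 0.984). RCBTB2, for example, read -1.26 to -1.21 in the controls and -0.76 and -0.81 with CNOT6L and NOC shRNA, a span well under that of KRT6A.

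**Figure D5:**
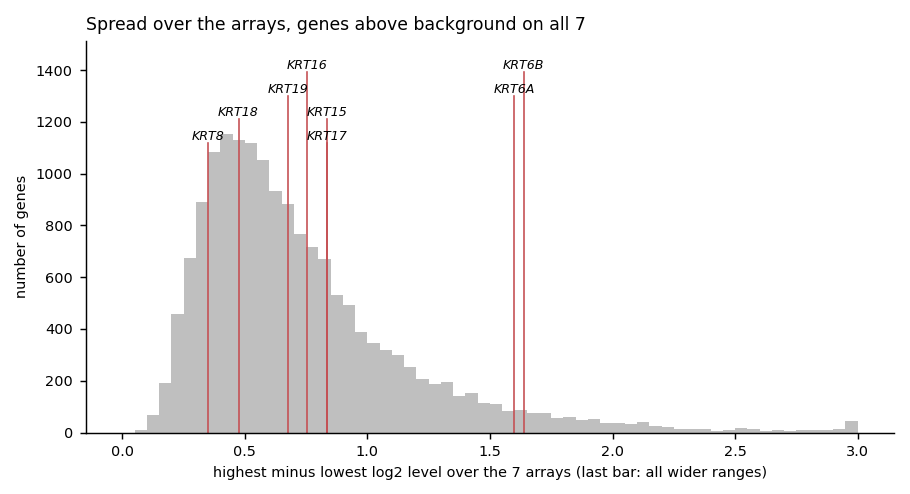
Histogram of the highest minus the lowest log2 level over the 7 arrays for the 16456 genes above background on all of them; lines mark the keratins. KRT8 sits at 0.35, left of the median of 0.62, and KRT6A and KRT6B at 1.60 and 1.64 sit in the right tail, where 6.25% of genes have a range of 1.5 or more.

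The other keratin genes and the proteins that work with keratins were read from lists under the same rule. Of 18 other epithelial keratins, 14 were above background on all arrays, 2 passed as higher with CNOT6L and 2 with NOC, and none with PARN, CNOT6 or CNOT7. Over all genes 0.205% passed as higher with CNOT6L and 0.304% with NOC. Besides KRT6C these were KRT80 with CNOT6L (1.87 and 1.04 above the controls, not passing after quantile normalization or normexp correction) and KRT77 with NOC (at least 2.03 and 1.52, above background on 3 arrays, not passing after normexp correction). KRT7, a simple keratin, read 1.55 and 1.91 in the controls and 1.41 to 2.17 with the shRNAs. KRT10 and KRT13, keratins of the upper layers of stratified epithelia, were above background on all arrays and passed with no shRNA. Of 24 hair keratins measured, KRT72 alone passed, lower with CNOT6L (-1.23 and -1.88) and with NOC (-1.19 and -1.84). It did not pass after quantile normalization or normexp correction. Over all genes 0.86% passed in either direction with CNOT6L and 1.32% with NOC. KRT6C, KRT72, KRT77 and KRT80 were each read by 1 spot. For each of them the arrays of row 2 lay apart from those of row 1, as for 25.5% of all genes. KRT72 read -6.72 to -6.40 in row 2 and -5.48 to -4.83 in row 1. KRT80 read -5.46 to -4.61 and -6.94 to -5.66, and KRT77 -7.72 to -6.83 and -9.56 to -8.35. KRT6C read -3.99 to -3.03 and -4.69 to -4.15. These shRNAs and row 2 cannot be told apart here, and the rows were compared after the values were seen.

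None of 14 keratin linkers (such as the desmosomal protein DSP and plectin, PLEC), 16 other intermediate filament genes (such as VIM) and 22 regulators of keratin transcription (such as KLF4 and TP63) passed with any shRNA, nor did any marker of the squamous, adenocarcinoma, neuroendocrine, mesenchymal or white blood cell lists. Over all genes 0.477% to 1.32% passed in either direction with a single shRNA, so none passing in such short lists is not read as a result. Of 14 genes of the cornified envelope, the cross-linked shell of the skin surface, TGM3 passed as higher with CNOT6L, as did 0.205% of all genes. It passed on the strength of 1 of its 2 spots (4.07 against -6.54 for the other spot on the same array).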

How the data were processed

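Total RNA of NCI-H520 cells was labelled with Cy3 from 0.2 µg and hybridised to 7 single-colour Agilent arrays, 1 per group, with groups taken from the sample titles. The scanner files deposited by the authors hold, per their headers, the intensity of 62976 spots per array from Feature Extraction 10.7.3.1, as a foreground, a local background and a background-subtracted processed signal, on a grid annotated for hg19. The series table that the authors deposited holds log2 values, which matched the scanner files apart from 1 shift per array and a centring of each probe. Its exact scaling steps are not given in the sources used here.

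Gene spots not marked as outliers were averaged per probe (42405 probes) and scaled to the array's 75th percentile. A probe was called well above background if 50% or more of its spots carried that mark. A RefSeq gene table of GRCh38.p14 named 24826 probes and 19062 genes through their accessions, and each gene was read by its lead probe, that with the highest mean signal. With 1 array per group there was no test for a single shRNA: a gene passed if it was 2-fold or more above both controls, or below both, with the brighter side well above background and a dim side raised to the lowest signal above background on that array. The 5 shRNA arrays were compared with the 2 controls by limma 3.58.1 in R 4.3.3 (lmFit, eBayes with trend, two-sided, Benjamini-Hochberg threshold 0.05, probes above background on at least 2 arrays), whose spread is that between different plasmids. The number of arrays limits the precision. The scripts were tested on simulated data.

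The keratins and the gene lists (other epithelial keratins, hair keratins, keratin linkers, other intermediate filaments, regulators of keratin transcription, cornified envelope and the cell type markers) were chosen with earlier results of these data known. Genes named were all 10 keratins, list genes that passed with at least 1 shRNA, and, for each keratin above background on all arrays with a range of at least 1 log2, the 3 genes with the highest Pearson r. Further list genes were named as examples. CNOT6 was found through the accession in the labels. Alternatives were quantile normalization, no scaling, another 75th percentile, normexp correction (offset 50), outlier spots kept, the series table, the mean of a gene's probes, dim genes left out, a 4-fold threshold, either control alone, the lone array in limma and comparison within slide row 2. Slide row as a further term in limma was also tried.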

Additional observations from a re-analysis of the deposited data

How the results depend on the processing

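No paired analysis was possible because every group has only replicate 1. Of the results on numbers of keratins, 79 alternative values stayed within 1.5 times the main count and 24 did not. None reversed a called direction, but few directions were called. Most main counts were 0, where staying within that bound means staying at 0, so the tally says little about stability. For CNOT6L the count was 0 in place of 1 with normexp correction, at 4-fold, in limma with the lone array and within slide row 2. For NOC it was 1 (KRT6A higher) in place of 0 with quantile normalization. With either control alone, the counts were 0 to 1 for PARN, 1 for CNOT6 with each, 2 to 3 for CNOT6L, 1 to 2 for CNOT7 and 1 to 2 for NOC. Against the non-target control alone these added KRT6B higher for CNOT6, CNOT6L, CNOT7 and NOC, KRT5 higher for CNOT6L and CNOT7, and KRT6A higher for NOC. Against the empty vector alone they added KRT14 lower for all 5 shRNAs. The share of all genes passing against either control alone is not given here, so these counts are not read as results on the keratins. The controls themselves differed 2-fold for 11.6% of all genes. Between the controls the count of 2 became 0 with quantile normalization, normexp correction or 4-fold, 1 with dim genes left out and 5 without scaling. The count of keratins with all shRNAs outside both controls, 0, became 1 with quantile normalization (KRT15 higher) and 1 with the mean of all probes (KRT8 lower), and ran from 0 to 3 when 1 array was left out. It was 3 without the empty vector (KRT5, KRT6B and KRT15 higher), 2 without the non-target control (KRT14 and KRT16 lower) and 2 without PARN (KRT6B and KRT15 higher). The share of 6.68% of all genes holds for the full set of arrays. With an array left out it is not given here, so these counts are not read as results on the keratins. In limma 0 keratins passed under each alternative, with 0 to 2 at an unadjusted p under 0.05. Dropping the scaling moved the median of all genes by -0.33 for PARN, -1.01 for CNOT6, 0.40 for CNOT6L, 0.54 for CNOT7 and 0.22 for NOC; the causes of the other changes were not tested. KRT5, KRT14 and KRT17 were limited by signal over background.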
